A study of Homo sapiens with 12 samples.

Results

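The genes described here are 8 keratins (KRT7, KRT8, KRT18, KRT19, KRT80, KRT81, KRT86 and KRT17), vimentin (VIM) and anterior gradient 2 (AGR2), 10 of the 52859 genes used from a count table of MDA-MB-231 cells. They were chosen by gene symbol, with earlier results of these data known, and their levels were followed over 4 groups of libraries. MDA-MB-231 is an established human breast cancer cell line, triple-negative and of mesenchymal-like form. Cells of this single line received 20 nM of a locked nucleic acid (LNA), a short and chemically stabilised oligonucleotide that pairs with its complementary RNA, carried by a lipid transfection reagent, and RNA was collected on day 2. The groups were mtAsn-1 and mtAsn-2, which are a pair of LNAs against the mitochondrial asparagine tRNA, mtLys, an LNA against the mitochondrial lysine tRNA, and a control LNA. Each group had 3 libraries, and every group, control included, had been transfected. Nothing in the labels says that a group's libraries were separate cultures. The p-values below therefore rest on a spread between libraries that may be only technical. Levels are given as CPM, the count scaled to its library's size, and CPM per kb of exon where genes are compared with each other.

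Keratins are the intermediate filament proteins of epithelial cells. A filament is built from pairs of a type I keratin (here KRT17, KRT18 and KRT19) and a type II keratin (here KRT7, KRT8, KRT80, KRT81 and KRT86), and KRT8 with KRT18 is the pair of simple and luminal epithelia. VIM is the type III filament protein of mesenchymal cells, which carcinoma cells that have lost epithelial traits also make, and AGR2 is a member of the protein disulfide isomerase family in the endoplasmic reticulum, best known from secretory epithelia and estrogen receptor positive breast cancer.

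Total counts per library ran between 17978825 and 37708993, and log2 CPM of libraries in the same group correlated across genes with r between 0.9925 and 0.9963. The asparagine tRNA gene TRNN had 2 to 5 reads with mtAsn-1 and 1 to 3 with mtAsn-2. It had 1 to 5 with mtLys and 2 to 6 in control, too few to check the labels. The lysine tRNA gene TRNK stood at 7.37 to 8.29 CPM with mtLys and 5.88 to 6.80 CPM in control. With mtAsn-1 TRNK had 6.21 to 9.67 CPM and with mtAsn-2 6.61 to 10.15 CPM, ranges that enclose that of mtLys. Markers fixed for a mesenchymal-like line were mostly as the label has it. VIM, FN1, AXL and CD44 each exceeded 500 CPM in all 12 libraries and ZEB1 lay between 68.5 and 98.3 CPM, whereas CDH1, ESR1, PGR and FOXA1 stayed under 0.6 CPM. The exceptions were CDH2 at 0.112 to 0.647 CPM, ERBB2 at 89.4 to 119.6 CPM, GATA3 at 10.2 to 14.2 CPM and EPCAM at 3.45 to 6.21 CPM. Of the other cell types checked, fibroblast markers summed to at most 0.372 CPM with DCN at 0 in every library. The leukocyte list summed to 96.4 to 121.7 CPM with mtAsn-1, 90.9 to 101.3 with mtAsn-2, 96.7 to 107.5 with mtLys and 78.2 to 81.5 in control, nearly all of it CD68. The endothelial list summed to 14.98 to 18.1, 10.1 to 11.6, 16.5 to 18.5 and 10.9 to 13.1 CPM in the same order, nearly all of it PECAM1. Among the defining markers, CD3E and CDH5 had at most 1 read in a library, PTPRC at most 10, ITGAM at most 13 and VWF at most 15, and CD14 lay between 2.08 and 3.95 CPM. The part of these markers in the results was not tested, and in bulk RNA fewer cells of a type and less RNA per cell cannot be told apart.

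Keratin mRNA was lower with every LNA against a mitochondrial tRNA, and the fall was unequal among the keratins. The 8 keratins together had 1111.8 ± 22.7 CPM per kb with mtAsn-1, 944.2 ± 32.3 with mtAsn-2, 1196.7 ± 11.4 with mtLys and 1474.1 ± 40.5 in control (SD, n = 3 each), and no library of the first 3 groups reached the lowest control library. VIM alone had 1713.0 ± 84.4 CPM per kb with mtAsn-1, 1399.6 ± 35.0 with mtAsn-2, 1603.8 ± 68.9 with mtLys and 1519.2 ± 60.5 in control. Per length, the mean of VIM exceeded that of the summed keratins in each group. In control their ranges overlapped, at 1449.93 to 1561.86 for VIM and 1427.38 to 1498.85 for the keratins. Within control, the order per kb was VIM, KRT8 (390.3), KRT18 (340.0), KRT7 (250.01), KRT19 (247.9), KRT81 (165.7), KRT80 (74.3), AGR2 (8.85), KRT86 (5.35) and KRT17 (0.420), with KRT7 and KRT19 closer than the SD of KRT7 (8.38).

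All 10 genes passed the filter on low counts. By edgeR's quasi-likelihood test with Benjamini-Hochberg adjusted p under 0.05, 1 of the 10 was higher and 7 were lower with mtAsn-1 than in control, where 48.5% of the 16051 tested genes were called in either direction (24.3% higher, 24.2% lower). With mtAsn-2, 1 was higher and 8 were lower, against 51.1% of all tested genes called (24.1% higher, 27% lower). With mtLys, 1 was higher and 4 were lower, against 48.5% called (24.6% higher, 23.9% lower), so the members' share there was near the background. The median absolute log2 fold change of the 10 genes was 0.33, 0.56 and 0.38 with mtAsn-1, mtAsn-2 and mtLys, beside 0.23, 0.24 and 0.22 over all tested genes. KRT8, KRT18, KRT81 and KRT86 were the 4 members lower with each of the 3 LNAs. The share of all tested genes lower with all 3 was not counted, so this joint count has no background beside it. The 3 comparisons share the control libraries, so their calls are not independent of each other.

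**Figure D1:**
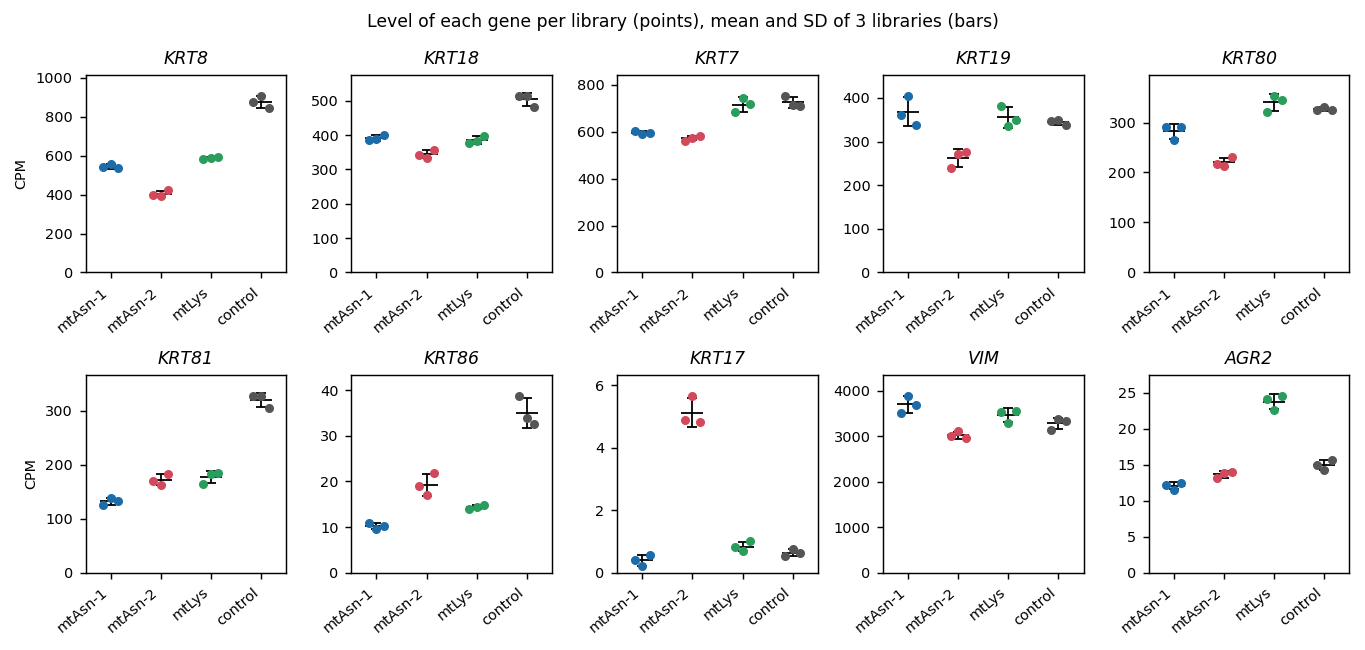
CPM (linear axis that starts at 0) of each gene in each library (points) by group, with the mean and SD of 3 libraries as bars. KRT8, KRT18, KRT81 and KRT86 lie below control in every library of the other 3 groups, KRT17 stands at 4.81 to 5.65 CPM in mtAsn-2 libraries alone, and AGR2 is highest with mtLys.

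KRT8, the type II partner of KRT18 in simple epithelia, had 541.1, 557.1 and 535.9 CPM in mtAsn-1 libraries, 399.1, 392.1 and 421.8 in mtAsn-2 libraries, 583.9, 589.5 and 592.4 in mtLys libraries, and 875.5, 908.6 and 847.1 in control. No library overlapped between any of the 4 groups. Against control the log2 fold change was -0.69 ± 0.038 for mtAsn-1 (SE, adjusted p = 2.99e-14), -1.12 ± 0.038 with mtAsn-2 (adjusted p = 5.43e-19) and -0.58 ± 0.038 with mtLys (adjusted p = 7.65e-13). KRT8 was thus lowest with mtAsn-2, at 0.461 of the control level, and 4.82% of tested genes changed more there. mtAsn-2 lay below mtLys by edgeR (-0.54 ± 0.038, adjusted p = 1.84e-12), whereas mtAsn-1 and mtLys did not pass against each other (-0.11 ± 0.038, adjusted p = 0.087).

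KRT18, the type I partner, had 386.6, 387.3 and 400.1 CPM in mtAsn-1 libraries, 342.2, 334.3 and 356.2 in mtAsn-2 libraries, 376.9, 381.8 and 397.5 in mtLys libraries, and 514.1, 514.3 and 482.4 in control. All 9 libraries with an LNA against a tRNA lay below the lowest control library, and mtAsn-1 overlapped mtLys. KRT18 fell by edgeR with each LNA, with log2 fold changes of -0.36 ± 0.039 for mtAsn-1 (adjusted p = 9.89e-09), -0.55 ± 0.039 with mtAsn-2 (adjusted p = 1.9e-12) and -0.39 ± 0.039 with mtLys (adjusted p = 2.87e-09). mtAsn-2 was again the lowest and differed from mtLys (-0.16 ± 0.039, adjusted p = 0.000922), while mtAsn-1 against mtLys gave 0.02 ± 0.039 (95% interval -0.05 to 0.10, adjusted p = 0.816).

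KRT18 fell less than KRT8, and the ratio of the pair moved with each LNA. Per kb, the ratio of KRT18 to KRT8 was 1.08, 1.05 and 1.13 in mtAsn-1 libraries, 1.30, 1.29 and 1.28 in mtAsn-2 libraries, 0.979, 0.983 and 1.02 in mtLys libraries, and 0.891, 0.859 and 0.864 in control libraries. No library overlapped between groups. Two-sided exact permutation tests gave p = 0.1 for each of the 6 comparisons, the smallest p that 3 libraries against 3 allow. The genes lie head to head on chromosome 12, KRT8 at chr12:52897191-52949860 on the minus strand and KRT18 at chr12:52948871-52952906 on the plus strand (hg38), and share 135 exon bases, 6.01% of KRT8 exons and 9.12% of KRT18 exons. Whether counting used the strand is not given in the sources used here, so reads in those bases cannot be assigned to 1 gene of the pair.

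Copies of both genes are scattered over the genome. The 49 KRT8 pseudogenes in the table held reads equal to 2.38% to 2.97% of the KRT8 count with mtAsn-1, 2.93% to 3.41% with mtAsn-2, 2.52% to 2.66% with mtLys and 2.38% to 2.65% in control. The most counted of them, KRT8P36, had log2 fold changes of -0.75 ± 0.107 for mtAsn-1, -1.19 ± 0.104 for mtAsn-2 and -0.59 ± 0.098 for mtLys, close in size to those of KRT8. The 66 KRT18 pseudogenes held 1.02% to 1.47% of the KRT18 count, and 28.9% of the 50-base windows of KRT18 transcripts occur in another gene's transcript. Reads of these copies may have been split or dropped by the counting, so the size of the uncertainty in the KRT8 and KRT18 levels is not known.

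KRT7, a type II keratin of simple and glandular epithelia, had 604.3, 589.8 and 597.0 CPM in mtAsn-1 libraries, 562.7, 575.1 and 582.3 in mtAsn-2 libraries, 683.6, 744.3 and 720.6 in mtLys libraries, and 753.9, 714.9 and 709.3 in control. Both asparagine LNAs lay below all other libraries, and mtLys overlapped control. KRT7 fell with both, by edgeR log2 fold changes of -0.28 ± 0.038 for mtAsn-1 (adjusted p = 6.22e-07) and -0.34 ± 0.038 with mtAsn-2 (adjusted p = 1.74e-08), against -0.02 ± 0.038 with mtLys (95% interval -0.09 to 0.05, adjusted p = 0.696). Set directly against mtLys, KRT7 was lower with mtAsn-1 (-0.26 ± 0.038, adjusted p = 9.56e-05) and with mtAsn-2 (-0.32 ± 0.038, adjusted p = 6e-08), and the asparagine LNAs did not pass against each other (adjusted p = 0.223). In that direct comparison of mtAsn-1 with mtLys, 5 of the 10 members were lower and none was higher, where 5.26% of tested genes were called in either direction (2.12% higher, 3.14% lower). KRT7 (chr12:52233243-52252667, plus strand) shares exon bases on the opposite strand with KRT7-AS (221 bases), KRT87P (252 bases) and METTL7AP1 (39 bases), whose counts per library reached 311, 226 and 164 at most, beside 10319 or more for KRT7.

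KRT19 (chr17:41523617-41528308, minus strand), the type I keratin without a tail domain, had 361.8, 405.1 and 338.4 CPM in mtAsn-1 libraries, 239.3, 272.7 and 275.4 in mtAsn-2 libraries, 382.5, 334.7 and 348.9 in mtLys libraries, and 347.5, 348.6 and 337.9 in control. Only the mtAsn-2 libraries stood apart, all below the other 9. KRT19 fell with mtAsn-2 (-0.39 ± 0.066, adjusted p = 0.000118), and it did not pass with mtAsn-1 (0.09 ± 0.066, 95% interval -0.04 to 0.22, adjusted p = 0.261) or mtLys (0.04 ± 0.066, -0.09 to 0.17, adjusted p = 0.615). The direct comparisons place the difference on mtAsn-2: mtAsn-1 was above it (0.49 ± 0.066, adjusted p = 1.75e-05) and it was below mtLys (-0.44 ± 0.066, adjusted p = 4.64e-05).

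KRT80, a type II keratin (chr12:52168996-52192014, minus strand), was also lowest with mtAsn-2, but unlike KRT19 it fell with mtAsn-1 too. It had 291.2, 264.5 and 291.0 CPM in mtAsn-1 libraries, 217.9, 213.2 and 230.5 in mtAsn-2 libraries, 321.5, 353.6 and 345.3 in mtLys libraries, and 324.8, 331.0 and 325.1 in control. mtAsn-2 was lowest, mtAsn-1 lay between it and the rest, and mtLys overlapped control. The log2 fold change was -0.21 ± 0.044 for mtAsn-1 (adjusted p = 0.000219), -0.57 ± 0.044 for mtAsn-2 (adjusted p = 1.16e-11) and 0.06 ± 0.043 for mtLys (95% interval -0.03 to 0.14, adjusted p = 0.294). The asparagine LNAs differed from each other (mtAsn-1 over mtAsn-2, 0.36 ± 0.044, adjusted p = 1.19e-07).

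In the direct comparison of mtAsn-2 with mtLys, 2 members were higher and 7 were lower, against 48.6% of all tested genes called (22.9% higher, 25.7% lower). Between mtAsn-1 and mtAsn-2, 5 were higher and 3 were lower, against 46.5% called (24.6% higher, 21.9% lower).

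**Figure D2:**
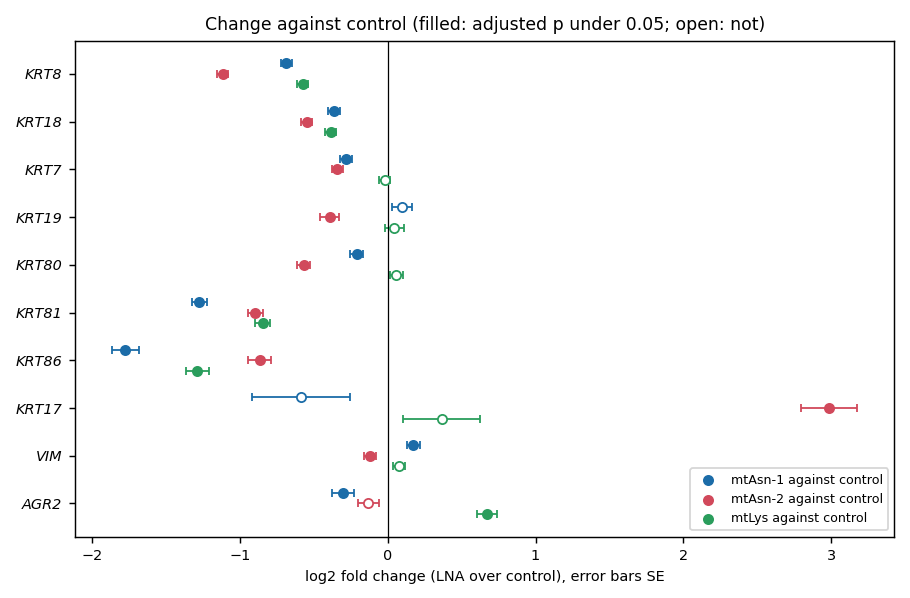
Log2 fold change of each gene against control (points) with its SE (bars) for mtAsn-1, mtAsn-2 and mtLys, filled where the adjusted p is under 0.05. KRT8, KRT18, KRT81 and KRT86 are filled and left of 0 with all 3 LNAs, KRT7 and KRT80 with mtAsn-1 and mtAsn-2, KRT19 with mtAsn-2, and KRT17 reaches 2.99 with mtAsn-2.

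KRT81 and KRT86 are type II hair keratins, built for the hard keratin of the hair shaft. KRT81 had 125.9, 138.4 and 132.5 CPM in mtAsn-1 libraries, 170.2, 162.9 and 182.7 in mtAsn-2 libraries, 165.1, 182.8 and 185.5 in mtLys libraries, and 327.1, 326.8 and 305.0 in control. All 9 libraries of mtAsn-1, mtAsn-2 and mtLys lay below every control library, and mtAsn-1 was below mtAsn-2 and mtLys, which overlapped. The log2 fold change was -1.27 ± 0.050 for mtAsn-1 (adjusted p = 1.01e-16), -0.90 ± 0.049 for mtAsn-2 (adjusted p = 2.05e-14) and -0.85 ± 0.049 for mtLys (adjusted p = 1.13e-13). mtAsn-1 differed from mtAsn-2 (-0.38 ± 0.050, adjusted p = 5.33e-07) and from mtLys (-0.43 ± 0.050, adjusted p = 5.21e-06), and mtAsn-2 did not pass against mtLys (-0.05 ± 0.049, 95% interval -0.14 to 0.05, adjusted p = 0.442).

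KRT86 was counted far less, with 10.99, 9.49 and 10.2 CPM in mtAsn-1 libraries, 19.0, 16.9 and 21.8 in mtAsn-2 libraries, 13.9, 14.4 and 14.9 in mtLys libraries, and 38.7, 33.8 and 32.6 in control. The 4 groups did not overlap. KRT86 had the largest falls among the 10 genes with mtAsn-1 (-1.78 ± 0.089, adjusted p = 1.14e-14) and mtLys (-1.29 ± 0.080, adjusted p = 5.26e-13), and 1.35% and 3.24% of tested genes changed more there. With mtAsn-2 its change was -0.87 ± 0.077 (adjusted p = 3.58e-10). All 3 LNAs differed from one another, with mtAsn-1 below mtAsn-2 (-0.91 ± 0.092, adjusted p = 5.43e-09), mtAsn-1 below mtLys (-0.49 ± 0.095, adjusted p = 0.00255) and mtAsn-2 above mtLys (0.42 ± 0.082, adjusted p = 0.000113). In both hair keratins mtAsn-1 was the lowest group, whereas mtAsn-2 was the lowest in KRT8, KRT18, KRT7, KRT19 and KRT80.

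KRT81 and KRT86 share part of their sequence, which bears on how their reads were divided. KRT81 (chr12:52285913-52291534, minus strand) lies inside the span of KRT86 (chr12:52270507-52309163, plus strand) without shared exon bases. Their coding sequences of 1515 and 1458 bases in GENCODE 29 are 90.1% identical when aligned, with an identical run of 605 bases, and 38.4% of the 50-base windows of KRT81 transcripts and 33.3% of those of KRT86 occur in the other gene. The first 90 bases of that run are shown because a read from them fits both genes (GRCh38, coding strand, all in lower case since no base differs; KRT81 at chr12:52291316-52291405, minus strand; KRT86 at chr12:52301977-52302066, plus strand):
KRT81: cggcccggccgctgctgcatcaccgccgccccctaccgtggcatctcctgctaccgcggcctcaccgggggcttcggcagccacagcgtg
KRT86: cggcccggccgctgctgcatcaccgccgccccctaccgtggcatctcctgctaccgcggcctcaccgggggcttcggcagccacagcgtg
The least alike 90-base block of the coding sequences is shown because reads there can be told apart. It runs over the junctions of the last coding exons, from 52286447 to 52287112 on the minus strand in KRT81 and from 52306270 to 52308450 on the plus strand in KRT86, and capitals mark the 19 bases that differ:
KRT81: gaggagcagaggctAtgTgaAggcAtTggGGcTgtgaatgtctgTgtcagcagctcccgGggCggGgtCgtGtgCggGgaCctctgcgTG
KRT86: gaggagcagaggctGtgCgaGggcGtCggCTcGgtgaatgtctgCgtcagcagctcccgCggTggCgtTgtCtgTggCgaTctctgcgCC

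How reads that fit both genes were handled is not given in the sources used here, so the split between KRT81 and KRT86 is uncertain. Per kb, the ratio of KRT81 to KRT86 was 38.9, 49.5 and 43.9 in mtAsn-1 libraries, 30.4, 32.7 and 28.4 in mtAsn-2 libraries, 40.2, 43.1 and 42.4 in mtLys libraries, and 28.7, 32.8 and 31.7 in control. mtAsn-1 and mtLys lay above control without overlap (exact permutation p = 0.1 each), and mtAsn-2 overlapped control (exact permutation p = 0.7). Summed per kb over the 8 keratins, the type I level relative to type II was 0.909 ± 0.033 with mtAsn-1, 0.817 ± 0.022 with mtAsn-2, 0.760 ± 0.046 with mtLys and 0.664 ± 0.001 in control (SD, n = 3 each). Each LNA group lay above control without overlap, with exact permutation p = 0.1. Summed type II mRNA was thus lower by more than summed type I mRNA in these libraries, which did not hold gene by gene. With mtLys, type II KRT7 (-0.02 ± 0.038) and KRT80 (0.06 ± 0.043) were not called, while type I KRT18 fell (-0.39 ± 0.039).

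**Figure D3:**
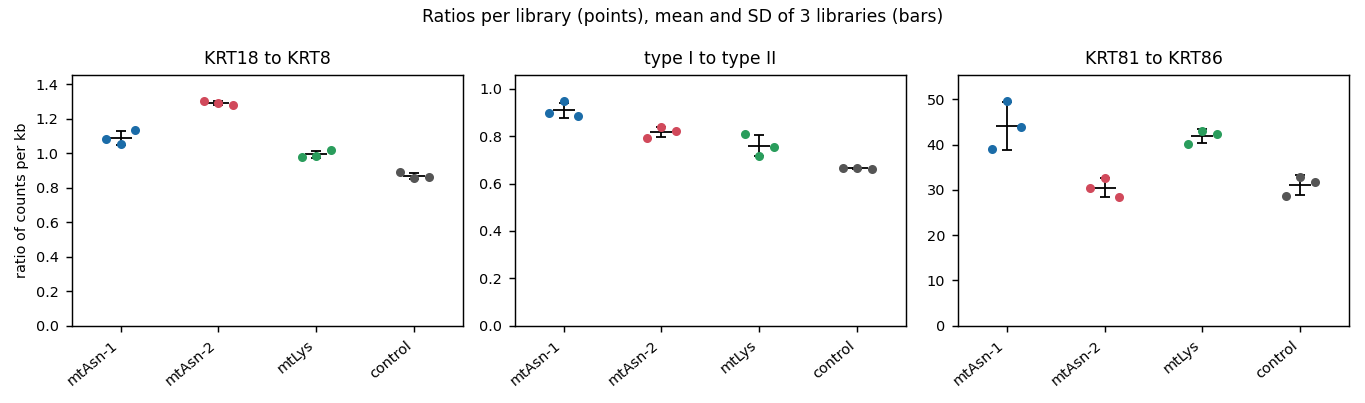
Ratios of counts per kb in each library (points) by group, with the mean and SD of 3 libraries (bars), for KRT18 to KRT8, summed type I to summed type II keratins and KRT81 to KRT86. The first 2 ratios lie above control in all 9 libraries of mtAsn-1, mtAsn-2 and mtLys, and mtAsn-2 overlaps control for KRT81 to KRT86.

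The tested neighbours of the hair keratins on chromosome 12 were also compared. From KRT80 to KRT18, 784 kb of chromosome 12 hold 40 genes of the table, of which 11 were tested. With mtAsn-1, 9 of the 11 were lower and 1 was higher, with mtAsn-2 also 9 and 1, and with mtLys 7 and 1, beside 24.2%, 27% and 23.9% of all tested genes lower for mtAsn-1, mtAsn-2 and mtLys. These counts include 6 members already described, KRT80, KRT7, KRT86, KRT81, KRT8 and KRT18, of which KRT80 and KRT7 did not pass with mtLys. Of the 5 others, KRT7-AS, KRT87P and KRT83 were lower with each LNA, KRT79 was higher, and METTL7AP1 was called with none (adjusted p = 0.905, 0.31 and 0.746 by edgeR). KRT87P, a pseudogene beside KRT86, fell with a log2 fold change of -1.67 ± 0.138 for mtAsn-1, -1.22 ± 0.120 for mtAsn-2 and -1.43 ± 0.123 for mtLys. KRT83, another type II hair keratin, fell by edgeR with mtAsn-1 (-1.12 ± 0.178, adjusted p = 6.56e-06), mtAsn-2 (-0.55 ± 0.152, adjusted p = 0.00333) and mtLys (-0.80 ± 0.157, adjusted p = 0.000117). KRT87P and KRT83 share 9.04% and 6.22% of the KRT81 windows, so their reads are not separate from KRT81 throughout. KRT79, a type II keratin of skin glands, rose to 0.996 ± 0.293 CPM for mtAsn-1, 0.849 ± 0.066 for mtAsn-2 and 0.880 ± 0.186 for mtLys, against 0.352 ± 0.158 in control (adjusted p = 0.000294, 0.000692 and 0.000423 by edgeR), with no more than 35 reads in any library.

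**Figure D4:**
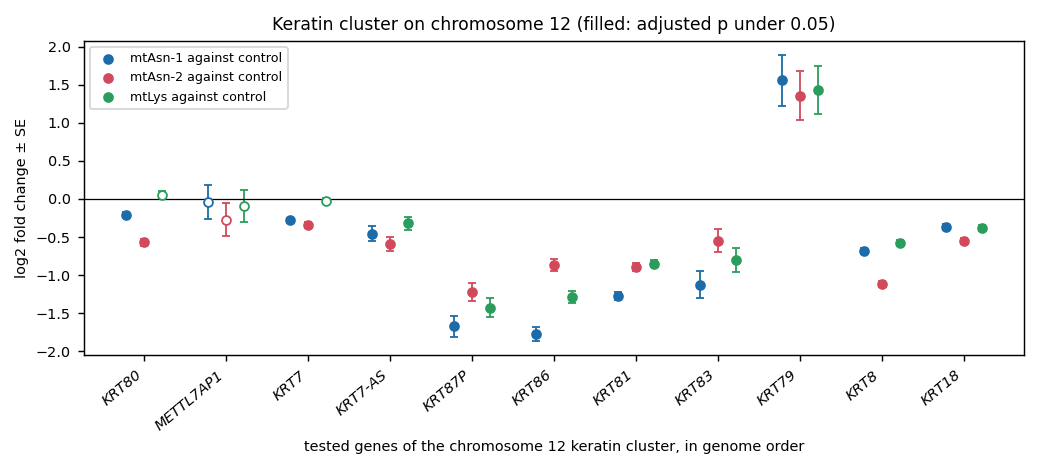
Log2 fold change against control (points) with SE (bars) of the 11 tested genes between KRT80 and KRT18 on chromosome 12, in genome order, filled where the adjusted p is under 0.05. KRT87P, KRT86, KRT81 and KRT83 lie furthest below 0 with mtAsn-1, and KRT79 alone lies above 0 with all 3 LNAs.

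KRT17 (chr17:41619442-41624575, minus strand), a type I keratin of basal cells that is induced in wounded and stressed epithelium, moved in the other direction and with a single LNA. Its counts were 8, 4 and 16 in mtAsn-1 libraries, 178, 181 and 158 in mtAsn-2 libraries, 30, 24 and 27 in mtLys libraries, and 14, 23 and 12 in control. As CPM these were 0.394, 0.229 and 0.575 in mtAsn-1 libraries, 4.90, 5.65 and 4.81 in mtAsn-2 libraries, 0.809, 0.703 and 1.01 in mtLys libraries, and 0.523, 0.747 and 0.641 in control. The mtAsn-2 libraries stood apart from all others, and mtAsn-1 and mtLys each overlapped control. Mean CPM was 8.04 times the control mean with mtAsn-2, a log2 fold change of 2.99 ± 0.190 (adjusted p = 2.24e-13), the 15th highest among the 16051 tested genes. mtAsn-2 was above mtLys (2.62 ± 0.170, adjusted p = 3e-13), and mtAsn-1 was below mtAsn-2 (-3.58 ± 0.216, adjusted p = 8.59e-14).

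KRT17 did not pass with mtLys (0.36 ± 0.262, 95% interval -0.15 to 0.88, adjusted p = 0.263) or mtAsn-1 (-0.59 ± 0.331, -1.24 to 0.06, adjusted p = 0.147), but without mtAsn-1 replicate 3 the mtAsn-1 value was -1.01 with adjusted p = 0.0497. The same library decided mtAsn-1 against mtLys, with adjusted p = 0.0617 with it and 0.0373 without it. The 5 KRT17 pseudogenes in the table had no read in any library, although 16% of KRT17 windows occur in another transcript. Even with mtAsn-2, KRT17 stayed at 3.38 ± 0.306 CPM per kb, against 179.95 ± 6.92 for KRT8. Of the other basal markers, KRT5, KRT6A and KRT6B had at most 1 read in any library. KRT14, which was too low to be tested, had 0.219 to 0.330 CPM in the mtAsn-2 libraries and at most 0.162 CPM in any other. TP63 stood at 1.18 to 1.37 CPM in mtAsn-1 libraries, 1.65 to 1.80 in mtAsn-2 libraries, 1.64 to 2.79 in mtLys libraries and 1.46 to 1.79 in control.

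Of the 47 other keratin genes in the table, 27 had no read in any library and 13 had 1 to 10 reads in their highest library, so this line's keratin mRNA came from few genes. The 47 genes held 13114 reads over all libraries, beside 847317 for the 8 keratins. Of the 4 that were tested, KRT15, a type I basal keratin, rose with all 3 LNAs, to 4.88 ± 0.174 CPM for mtAsn-1, 8.08 ± 0.759 for mtAsn-2 and 5.18 ± 0.591 for mtLys, against 2.77 ± 0.803 in control. By edgeR its log2 fold change was 0.79 ± 0.161 (adjusted p = 0.000197), 1.51 ± 0.141 (adjusted p = 6.7e-10) and 0.87 ± 0.15 (adjusted p = 2.34e-05) in that order. KRT14, a basal keratin too low to be tested, had 1, 0 and 1 reads in mtAsn-1 libraries, 12, 7 and 8 in mtAsn-2 libraries, 1, 1 and 0 in mtLys libraries, and 1, 5 and 3 in control; it was named after its values had been seen. KRT10, a suprabasal type I keratin, averaged 28.9 CPM with mtAsn-1, 30.7 with mtAsn-2, 27.7 with mtLys and 30.9 in control. By edgeR it was called lower with mtLys alone (-0.16 ± 0.059, adjusted p = 0.0234). That call was lost in several alternatives, such as without control replicate 2 (adjusted p = 0.199).

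VIM, the most abundant filament mRNA of the set, moved little. It had 3515, 3879 and 3691 CPM in mtAsn-1 libraries, 3001, 3102 and 2954 in mtAsn-2 libraries, 3532, 3288 and 3558 in mtLys libraries, and 3127, 3369 and 3334 in control. mtAsn-1 lay above control, mtAsn-2 below it, and mtLys overlapped it. By edgeR VIM rose with mtAsn-1 (0.17 ± 0.042, adjusted p = 0.00107) and did not pass with mtLys (0.08 ± 0.042, adjusted p = 0.124), where it passed without mtLys replicate 2 (0.12, adjusted p = 0.0289). It fell with mtAsn-2 (-0.12 ± 0.042, adjusted p = 0.019). That call did not hold when control replicate 2 (adjusted p = 0.0889) or 3 (0.0736) or mtAsn-2 replicate 1 (0.0715) or 3 (0.0801) was left out, nor with no filter on low counts (0.056). The difference between the asparagine LNAs themselves was larger, with mtAsn-1 over mtAsn-2 by 0.29 ± 0.042 (adjusted p = 1.45e-06).

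VIM (chr10:17228241-17237593, plus strand) shares 641 exon bases, 29.7% of its exons, with the antisense gene VIM-AS1, which had 44 to 90 reads in a library beside 62376 or more for VIM. Its promoter is shown as that of the non-epithelial member of the set, from RefSeq (GRCh38.p14, chr10:17227991-17228240, plus strand, the 250 bases before the gene's start), with capitals on the 1 GC box GGGCGG:
VIM: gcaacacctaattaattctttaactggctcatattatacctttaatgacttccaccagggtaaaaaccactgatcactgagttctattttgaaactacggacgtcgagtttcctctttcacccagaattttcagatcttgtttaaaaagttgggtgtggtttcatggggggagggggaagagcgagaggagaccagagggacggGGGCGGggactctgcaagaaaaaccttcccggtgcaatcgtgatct
A GC box on either strand occurs in 42.6% of 35116 promoters of this length. The window held no match to the E-box CANNTG (61.8% of promoters).

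Among 10 tested genes of the other intermediate filament types, 2 rose and 2 fell with each LNA. Over all tested genes, 24.1% to 24.6% were called higher and 23.9% to 27% lower with an LNA, so these counts were near the background. NES (nestin) rose with mtAsn-1 (0.69 ± 0.110, adjusted p = 0.000454) and mtLys (0.42 ± 0.109, adjusted p = 0.00873) and had 0.27 ± 0.109 with mtAsn-2 (adjusted p = 0.0621). The lens filament gene BFSP1 rose with all 3 (0.53 ± 0.119, 0.83 ± 0.110 and 0.91 ± 0.110 with mtAsn-1, mtAsn-2 and mtLys). LMNA, which encodes the A-type lamins, fell with mtAsn-2 to 1204 ± 30.9 CPM, against 1712 ± 90.02 CPM in control (-0.51 ± 0.043, adjusted p = 6.61e-11), and averaged 1690.5 CPM with mtAsn-1. Its smaller fall with mtLys (-0.11 ± 0.042, adjusted p = 0.0322) lost its call in several alternatives, such as without control replicate 2 (adjusted p = 0.232). The B-type lamins LMNB1 and LMNB2 passed with none of the 3 (smallest adjusted p = 0.0659, LMNB2 with mtAsn-2).

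AGR2 was higher with mtLys and not with the asparagine LNAs. It had 12.3, 11.5 and 12.4 CPM in mtAsn-1 libraries, 13.1, 13.8 and 14.1 in mtAsn-2 libraries, 24.2, 22.6 and 24.6 in mtLys libraries, and 15.1, 14.3 and 15.7 in control. The mtLys libraries lay above all others, and both asparagine groups lay below control without overlap. By edgeR AGR2 rose with mtLys (0.67 ± 0.067, adjusted p = 2.97e-09; 1.58 times the control mean), fell with mtAsn-1 (-0.30 ± 0.076, adjusted p = 0.00162) and missed the threshold with mtAsn-2 (-0.13 ± 0.071, 95% interval -0.27 to 0.01, adjusted p = 0.124).

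Set against each other, mtAsn-1 was below mtLys (-0.97 ± 0.071, adjusted p = 1.08e-09), and so was mtAsn-2 (-0.80 ± 0.065, adjusted p = 4.02e-11). Between mtAsn-1 and mtLys, only 1.31% of tested genes changed more than AGR2. mtAsn-1 did not pass against mtAsn-2 (-0.17 ± 0.075, adjusted p = 0.0598), where it passed without mtAsn-2 replicate 1 (-0.21, adjusted p = 0.0488), with RLE size factors (0.0497) and with a stricter filter (0.0353). AGR2 lies at chr7:16791811-16804999 on the minus strand (hg38), shares no exon base with another gene of the table and none of its 50-base windows with another transcript. Its promoter is shown because the gene's direction differed between LNAs, from RefSeq (GRCh38.p14, chr7:16805000-16805249, minus strand, the 250 bases before the start), with capitals on its 2 matches to the E-box CANNTG:
AGR2: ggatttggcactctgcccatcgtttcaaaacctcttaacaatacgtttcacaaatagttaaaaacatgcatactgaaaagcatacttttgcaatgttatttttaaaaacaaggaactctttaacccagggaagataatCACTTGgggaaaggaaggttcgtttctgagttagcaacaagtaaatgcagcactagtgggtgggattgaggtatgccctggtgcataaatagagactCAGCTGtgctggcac
The E-box occurs in 61.8% of promoters. Neither window held the TATA box TATAAA (10.7% of promoters), the AP-1 site TGANTCA (6.6%), the forkhead motif TGTTTNC (15.5%) or the NF-kB consensus (6.9%), searched on both strands.

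AGR2 belongs to the thiol oxidoreductases of the endoplasmic reticulum. Of 21 tested genes of this family, 14 rose and 2 fell with mtAsn-1, 10 rose and 5 fell with mtAsn-2, and 12 rose and 2 fell with mtLys, with median log2 fold changes of 0.22, 0.18 and 0.20 beside 0.00, -0.01 and 0.00 over all tested genes. The shares of all tested genes called higher and lower were 24.3% and 24.2% in mtAsn-1 libraries, 24.1% and 27% in mtAsn-2 libraries, and 24.6% and 23.9% in mtLys libraries. Of the 5 that fell with mtAsn-2, QSOX1 (adjusted p = 0.124 with no low-count filter and 0.16 without control replicate 2) and SELENOF (0.0859 with no low-count filter and 0.142 without mtAsn-2 replicate 3) lost their call in these and other alternatives. TMX4, the weakest of the 5 by edgeR (adjusted p = 0.046), was not compared over the alternatives. PDIA4 rose with all 3 LNAs (0.47 ± 0.043, 0.39 ± 0.042 and 0.35 ± 0.043 with mtAsn-1, mtAsn-2 and mtLys). P4HB, the canonical protein disulfide isomerase, rose with mtAsn-1 (0.22 ± 0.037, adjusted p = 1.71e-05) and mtLys (0.16 ± 0.037, adjusted p = 0.000694) and had -0.05 ± 0.037 with mtAsn-2 (adjusted p = 0.239). PDIA5 rose with mtAsn-1 (0.46 ± 0.076) and mtLys (0.57 ± 0.072) and had 0.03 ± 0.074 with mtAsn-2, and QSOX2 rose with all 3 (0.16 ± 0.041, 0.34 ± 0.040 and 0.20 ± 0.040). ERP29 fell with mtAsn-2 (-0.27 ± 0.040) and mtLys (-0.27 ± 0.040).

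**Figure D5:**
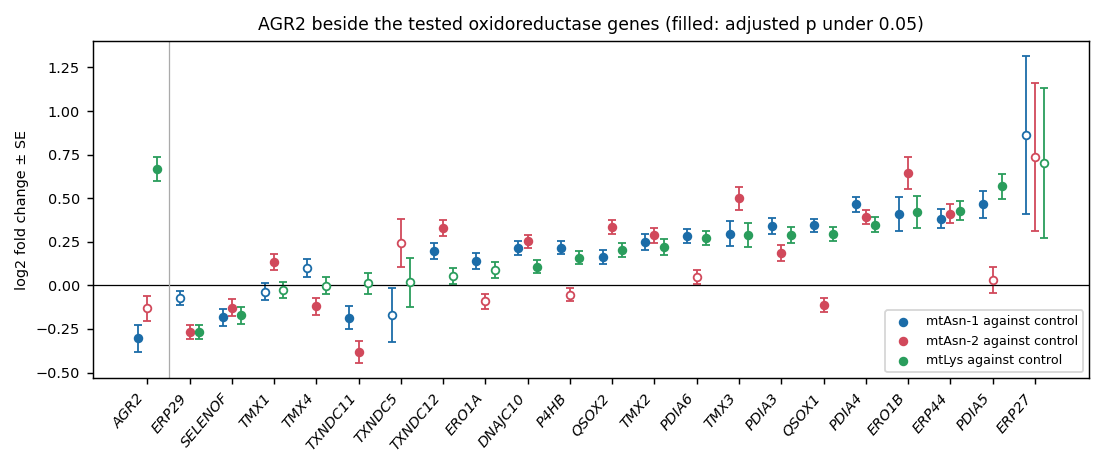
Log2 fold change against control (points) with SE (bars) of AGR2 and the 21 tested oxidoreductase genes, filled where the adjusted p is under 0.05. AGR2 is above 0 with mtLys alone, while 14, 10 and 12 of the other genes were called as higher with mtAsn-1, mtAsn-2 and mtLys.

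Among luminal and secretory genes, 5 of 13 rose and 4 fell with mtAsn-1, 4 rose and 5 fell with mtAsn-2, and 5 rose and 3 fell with mtLys. The shares over all tested genes were 24.1% to 24.6% higher and 23.9% to 27% lower. The trefoil factor TFF3, secreted with mucins, had its highest level with mtLys as AGR2 did, at 4.05 ± 0.300 CPM with mtAsn-1, 4.89 ± 0.809 with mtAsn-2, 6.41 ± 0.560 with mtLys and 3.25 ± 0.367 in control, and rose with mtAsn-2 (0.59 ± 0.135, adjusted p = 0.000562) and mtLys (0.99 ± 0.131, adjusted p = 3.41e-07). The transcription factor genes XBP1 and CREB3L1 fell with all 3 LNAs, XBP1 with log2 fold changes of -0.23 ± 0.047, -0.22 ± 0.046 and -0.26 ± 0.046 and CREB3L1 with -0.46 ± 0.045, -0.60 ± 0.045 and -0.47 ± 0.045 with mtAsn-1, mtAsn-2 and mtLys. SPDEF, which encodes an ETS factor of secretory cells, fell with mtAsn-2 (-0.61 ± 0.071, adjusted p = 4.1e-08) and had 0.01 ± 0.072 with mtAsn-1 and 0.11 ± 0.068 with mtLys.

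Genes that anchor keratin filaments to the cell surface moved both ways. Of 15 tested genes of desmosomes, hemidesmosomes and filament linkers, 6 rose and 6 fell with mtAsn-1, 3 rose and 7 fell with mtAsn-2, and 6 rose and 5 fell with mtLys. Beside these counts, 24.1% to 24.6% of all tested genes were called higher and 23.9% to 27% lower. JUP (plakoglobin) fell with all 3, to 136.7 ± 3.27 CPM for mtAsn-1, 84.8 ± 8.94 for mtAsn-2 and 131.6 ± 0.384 for mtLys, against 178.8 ± 10.9 in control, and so was lowest with mtAsn-2 as KRT8 was. PKP2 (plakophilin 2) fell with log2 fold changes of -0.50 ± 0.057, -0.80 ± 0.056 and -0.28 ± 0.055 for mtAsn-1, mtAsn-2 and mtLys. DSP, the plakin that binds keratin filaments to the desmosome, fell with mtAsn-1 (-0.70 ± 0.055, adjusted p = 5.57e-11) and mtLys (-0.49 ± 0.053, adjusted p = 2.32e-08) and had 0.05 ± 0.052 with mtAsn-2 (adjusted p = 0.457). COL17A1, a hemidesmosomal collagen, rose with all 3 (0.77 ± 0.088, 0.74 ± 0.084 and 1.07 ± 0.082), and MACF1, which encodes a linker of actin and microtubules, rose with mtAsn-1 (0.47 ± 0.062) and mtLys (0.45 ± 0.061).

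Genes of the epithelial list and of the mesenchymal list moved both ways with each LNA. The counts are small and neither list was tested as a set, so no direction is drawn from them. Of 25 tested epithelial junction and identity genes, 6 rose and 9 fell with mtAsn-1, 6 rose and 9 fell with mtAsn-2, and 9 rose and 7 fell with mtLys. EHF, an epithelial ETS factor gene, rose about as much with each LNA (1.13 ± 0.075, 1.21 ± 0.072 and 1.08 ± 0.073 with mtAsn-1, mtAsn-2 and mtLys), and CD24 fell with each (-0.96 ± 0.124, -1.15 ± 0.117 and -0.70 ± 0.113). SPINT2, a protease inhibitor gene, rose with mtAsn-1 (0.19 ± 0.043) and mtLys (0.26 ± 0.043) and fell with mtAsn-2 (-0.40 ± 0.043). Of 16 tested mesenchymal genes, 5 rose and 2 fell with mtAsn-1, 4 rose and 6 fell with mtAsn-2, and 7 rose and 1 fell with mtLys. The median log2 fold changes were -0.11, -0.09 and -0.01 for the epithelial list and 0.23, -0.02 and 0.22 for the mesenchymal list. Over all tested genes they were -0.0035, -0.0071 and -0.00054, with 24.1% to 24.6% called higher and 23.9% to 27% lower. The matrix gene FN1 rose with mtAsn-1 (0.78 ± 0.122) and mtLys (0.79 ± 0.122), TGFBI with all 3 (0.72 ± 0.045, 0.43 ± 0.045 and 0.75 ± 0.045), and SNAI1, the transcription factor that represses epithelial genes, fell with mtAsn-1 (-1.14 ± 0.097) and mtLys (-1.25 ± 0.091) and had -0.13 ± 0.082 with mtAsn-2 (adjusted p = 0.202).

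Genes of most like pattern to a member were taken by Pearson's r of log2 CPM over the 12 libraries, which fall into 4 groups and share their depth scaling, among 10844 genes with a mean log2 CPM of at least 2. These are descriptions with no test. KRT8 was most like RETREG3 (r = 0.991), KRT18 most like TP53INP1 (0.990), KRT7 most like NXN (0.988), KRT19 most like TMSB10 (0.978) and KRT80 most like ADAMTS15 (0.995). KRT86 was most like CFAP410 (0.986), KRT17 most like C5orf15 (0.978) and VIM most like HSP90B1 (0.954). AGR2 had the loosest match, CEMIP (r = 0.942), a hyaluronidase gene at 18.4 CPM with mtAsn-1, 19.7 with mtAsn-2, 47.7 with mtLys and 28.97 in control, which repeats the order of AGR2 over the groups.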

How the data were processed

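RNA libraries of 12 MDA-MB-231 samples were made with the TruSeq RNA Library Kit v2 per the labels. The authors' deposited table holds raw, unscaled read counts by gene, and the submitters' processing notes name FastQC, STAR 2.6.0a, featureCounts, DESeq2 and hg38. Of 52897 lines, 52859 genes were used; 12 genes with broken lines and 26 fragments were left out. The sources used here give neither strand use nor how multi-mapping reads were counted. The members and gene lists were chosen with earlier results of these data known.

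The fit was made with edgeR 4.0.16 under R 4.3.3 (TMM scaling, filterByExpr with minimum count 10 and minimum total 15, robust quasi-likelihood F tests from a single fit to the 12 libraries, Benjamini-Hochberg over 16051 genes, threshold 0.05; common biological coefficient of variation 0.0421). Tests were checked on simulated data. SE was worked back as the size of the log2 fold change divided by root F. CPM uses TMM-scaled totals, and kb the deposited exon length. Low counts limit KRT17, KRT14 and KRT79 most. Named genes were the members, the 3 highest genes of each list, in each comparison with control its 2 risers and 2 fallers of smallest adjusted p (examples are given), up to 3 genes most like each member, and neighbours that share reads; some results under this rule are not reported here. Shared windows were counted in GENCODE 29 transcripts; promoters came from RefSeq, where 3 of 10 members had an entry. Ratios were tested by two-sided exact permutation. The alternatives tried were DESeq2 1.42.0, RLE factors, a stricter filter or none, a replicate block and the compared groups alone. Others were raw ratios, leaving out each library, and counts of KRT8, KRT18, KRT19 and KRT17 summed with their named pseudogenes. Within each group, no 2 libraries were copies of each other (chi-square per gene 2.43 or more). Libraries of different groups were not compared in this way. Python 3.11.15, pandas 2.3.3, numpy 2.4.6, scipy 1.17.1 and matplotlib 3.10.9 were used.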

Additional observations from a re-analysis of the deposited data

How the results depend on the processing

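Over 60 results of the 10 members (10 genes in 6 comparisons), 1083 of 1098 alternative values kept their direction and their side of the threshold. The changed calls of VIM, KRT17 and AGR2 are given with those genes above, and their cause was not tested. Values that were not called changed sign for KRT19 in mtAsn-1 against mtLys (-0.022 without mtAsn-1 replicate 2, up to 0.11 without replicate 3), KRT19 in mtLys against control (-0.011 without mtLys replicate 1, up to 0.091 without replicate 2) and KRT7 in mtLys against control (0.0076 without control replicate 1 and 0.014 without mtLys replicate 1, down to -0.043 without mtLys replicate 2). The ratio of KRT81 to KRT86 changed sign in mtAsn-1 against mtLys (log2 difference -0.018 to 0.16 on leaving out 1 library) and in mtAsn-2 against control (-0.084 to 0.022), where the exact permutation p with all libraries was 0.6 and 0.7.

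Counts of called genes stayed within 1.5 times in 210 of 216 alternatives. The exceptions were in mtAsn-1 against mtLys, where leaving out 1 library gave 120 to 395 higher genes and 275 to 527 lower genes, beside 341 and 504 with all libraries; fewer samples enter those fits. Of 2167 alternative values of called list genes taken by the naming rule, 61 lost their call, among them ITGA6 and QSOX1 with mtAsn-2. Replicate numbers did not pair the samples (deviations of same-numbered libraries correlated at -0.33 to 0.15, over 0.1 in 4 of 18 pairs). A fit with the replicate block gave 256 higher and 420 lower genes in mtAsn-1 against mtLys and changed no member's call. At 4 to 30 reads a library outside mtAsn-2, depth limits what can be said of KRT17 with mtAsn-1 and mtLys.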
